A study of Arabidopsis thaliana with 2 samples.

Results

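Glutathione S-transferases are enzymes that join the tripeptide glutathione to reactive or foreign compounds, or use it to reduce them. Plants carry large tau and phi classes, best known for the detoxification of herbicides and other xenobiotics and for their induction by stress and by auxin-like compounds. Lambda enzymes and dehydroascorbate reductases mainly carry out glutathione-dependent reductions, theta enzymes reduce hydroperoxides, and zeta enzymes act in tyrosine breakdown. Family members were chosen by gene symbol, as every gene whose symbol begins with GSTU, GSTF, GSTL, GSTT, GSTZ or DHAR and which is read by a probe set assigned to 1 gene. This gave 13 members among 13356 named genes, namely 11 tau genes, 1 phi gene and 1 lambda gene. The gene table holds 50 genes with such symbols, and the other 37, all theta, zeta and dehydroascorbate reductase genes included, are not analysed here.

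The values come from a pair of ATH1 arrays, each carrying RNA of whole Arabidopsis thaliana plants. The auxin-resistant line axr4-2, in the Col0 ecotype, was hybridised to 1 array and Col0 wild type to the other. AXR4 is an endoplasmic reticulum protein required for AUX1, a carrier that takes up auxin, to reach the cell surface, and the series asked how the transcript profile of the mutant differs from that of wild type. Both sets of plants were kept at 22 °C with 24 h of light per day and are labelled growth stage 1.02, although the source names carry the code 3do, which may be the plants' age and which the labels do not explain, so the stage is uncertain. How many plants were pooled is not given in the sources used here. With 1 array per group there was no replicate check on any difference, no test was possible and no p-value is given.

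Levels are the deposited probe set intensities on a linear scale, in arbitrary units. For the ratio of axr4-2 over wild type, values below the 25th percentile of their array (12.0 in axr4-2, 13.5 in wild type) were raised to it, and log2 was taken. A gene counted as measured when the higher of its values reached the 50th percentile of that array (39.5 in axr4-2, 42.7 in wild type), and as 2-fold apart when its log2 ratio was at least 1 above or below 0. Over 6381 measured genes the median log2 ratio was -0.04 and the SD across genes 0.41. For 30 genes that had another measured probe set, the differences within a gene gave an SD of 0.41 for the log2 ratio of a single probe set, which is set beside the ratios below. This SD comes from the same pair of arrays, so it covers differences between probe sets and holds no variation between plants, RNA samples or arrays. A ratio beyond it is not thereby shown to exceed the error between replicates. The 3′ over 5′ signal of the actin control was 2.12 in axr4-2 and 3.23 in wild type, that of the ubiquitin control 1.81 and 2.26, and that of the GAPDH control 1.05 and 1.03. In level, actin read 1085.9 in axr4-2 and 809.2 in wild type at its 3′ end, and 511.3 and 250.5 at its 5′ end. GAPDH read 1804.8 and 1279.8 at its 3′ end, and 1719.3 and 1243.4 at its 5′ end. Ubiquitin read 3186.5 and 3215.8 at its 3′ end, and 1756.7 and 1421.3 at its 5′ end. The part of these differences in the ratios below was not tested.

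Of the 13 members, 9 were measured, 8 of the tau class and 1 of the lambda class. A single measured member, GSTU25, was 2-fold or more higher in axr4-2, and none was 2-fold or more lower. Among all measured genes, 0.940% were 2-fold or more higher and 1.47% were 2-fold or more lower. In all, 7 of the 9 measured members lay above 0 and 2 below, with a median log2 ratio of 0.06. Over all 6381 measured genes, 2917 lay above 0 and 3453 below. With no rescaling between the arrays, only 3 of the 9 lay further from 0 than the probe set SD of 0.41, GSTU20 barely so. A further 4 lay closer to 0 than 0.1. Each of the 13 members was read by 1 probe set, and none of these probe sets is of the kind shared between transcripts, so no second probe set was there to repeat any value.

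**Figure D1:**
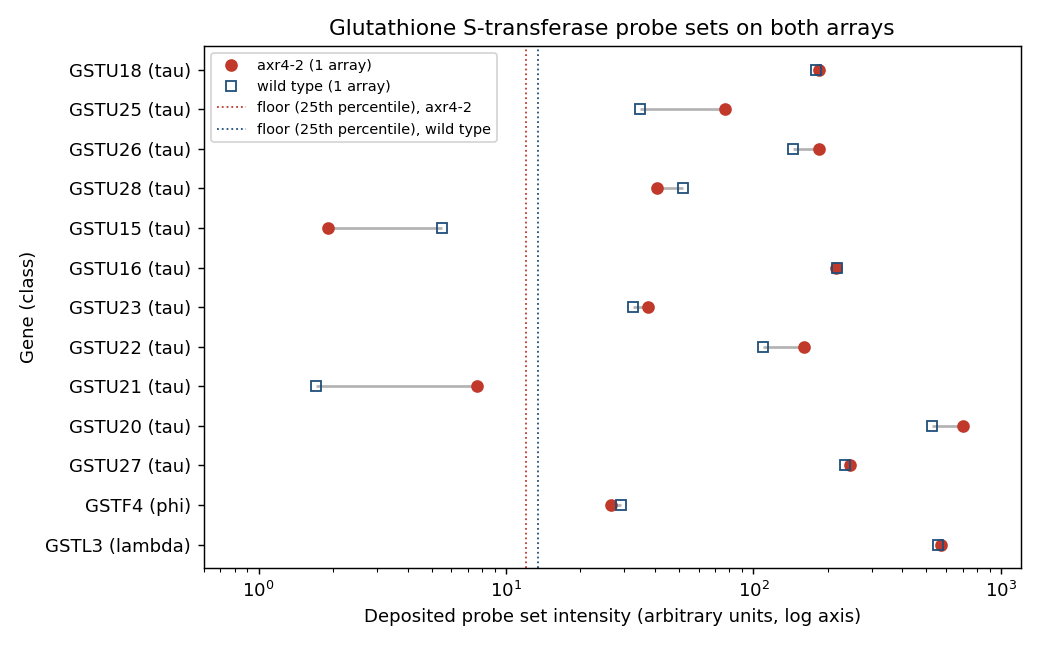
Deposited intensity of each of the 13 members (log axis, arbitrary units) on the axr4-2 array (filled circles) and the wild-type array (open squares), with dotted lines at the floors of 12.0 and 13.5. GSTU25 shows the widest gap among members above the floors, while both values of GSTU15 and of GSTU21 lie below them.

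GSTU25 (AT1G17180), a tau enzyme that can conjugate the explosive TNT to glutathione, had a level of 76.4 in axr4-2 and of 34.9 in wild type. The log2 ratio was 1.13, a 2.19-fold higher level in axr4-2, and 36th from the top of the 6381 measured genes. The axr4-2 value stood at percentile 66.2 of its array and the wild-type value at percentile 44.7, so the gene counted as measured through the axr4-2 array alone. Of the 365 genes measured through that array alone, 11.0% were 2-fold or more higher, a larger share than the 0.940% of all measured genes. In genes of like brightness, whose higher value lay between the 50th and the 75th percentile, the share was 1.33%. The wild-type reading was nonetheless above the brightest of 27 bacterial control probe sets on that array, which read 27.1.

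The neighbours of GSTU25 on the chromosome are GSTU24, which is not analysed here, and GSTU26 (AT1G17190). The GSTU26 level was 183.4 in axr4-2 against 144.6 in wild type, which gave a log2 ratio of 0.34. It was thus higher in axr4-2 as well, by less than the probe set SD. The ratio of GSTU25 exceeded that of GSTU26 by 0.79 on the log2 scale, beside an SD of 0.58 for a difference between probe sets.

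A second run of tau genes, in the order GSTU23, GSTU22, GSTU21, GSTU20 and GSTU19, had named probe sets for 4 of its 5 genes. GSTU22 (AT1G78340) read 160.6 in axr4-2 against 109.7 in wild type, with a log2 ratio of 0.55. GSTU20 (AT1G78370), whose product binds the jasmonate-conjugating enzyme FIN219/JAR1, read 701.7 and 525.3, with a log2 ratio of 0.42. Both were higher in axr4-2 by slightly more than the probe set SD of 0.41, and their ratios differed from each other by 0.13. The ratio of GSTU20 fell below that SD under quantile normalization (0.37) and with a lowess trend removed (0.40). In the set of all measured genes, 5.91% had a higher ratio than GSTU22 and 10.5% a higher ratio than GSTU20. GSTU23 (AT1G78320) read 37.5 and 32.6, short of the level needed to count as measured, with a log2 ratio of 0.20. GSTU21 (AT1G78360) read 7.6 and 1.7, both under the floors, so no ratio was formed. GSTU19 is not analysed here.

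**Figure D2:**
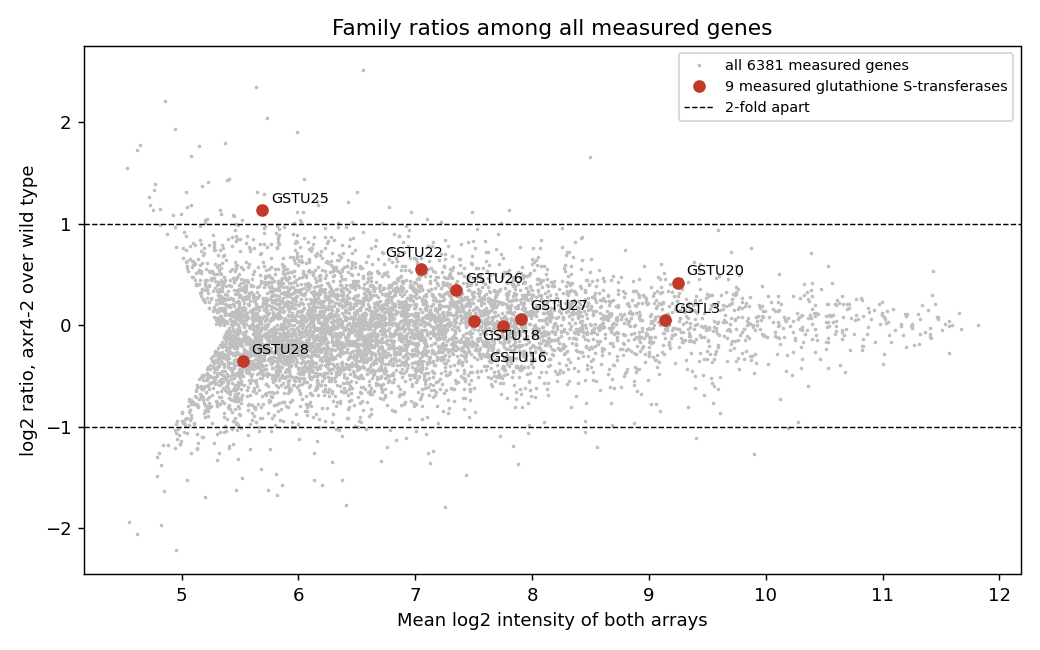
log2 ratio of axr4-2 over wild type against the mean log2 intensity of both arrays, with each grey point 1 of 6381 measured genes, red points the 9 measured members and dashed lines at 2-fold. GSTU25, at 1.13, lies among the dimmer genes and above the upper line, and the other 8 members lie between -0.36 and 0.55.

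The remaining 4 measured tau genes do not lie next to another measured member, and 3 of them had nearly equal levels on both arrays. GSTU16 (AT1G59700) read 214.9 in axr4-2 against 216.6 in wild type, and its log2 ratio of -0.01 turned to 0.03 with median centring. GSTU18 (AT1G10360) read 183.9 and 178.3, with a log2 ratio of 0.04. GSTU27 (AT3G43800) read 245.1 and 234.5, with a log2 ratio of 0.06. These 3 differed between the arrays by far less than the probe set SD. GSTU28 (AT1G53680) was the lowest member, at 40.6 in axr4-2 and 52 in wild type, with a log2 ratio of -0.36, which is within that SD. Its levels lay at percentiles 50.9 and 55.4 of their arrays.

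The 4 measured members that neighbour another measured member, in 2 runs, had log2 ratios from 0.34 to 1.13, with a median of 0.48. Without GSTU25, which counted as measured through the axr4-2 array alone, they ranged from 0.34 to 0.55 with a median of 0.42. GSTU26 was kept in that range although GSTU25 is its only measured neighbour, so the range still rests on GSTU25 having counted. With GSTU25 not counted, GSTU26, at 0.34, would stand among the others. The 5 other measured members, GSTL3 included, ranged from -0.36 to 0.06, with a median of 0.04. GSTU23, in the run of GSTU22 and GSTU20, was too dim to count, and its log2 ratio of 0.20 lies between these ranges. Among all measured genes, 14.4% had a higher ratio than GSTU26, the lowest member of the runs, and 38.8% a higher ratio than GSTU27, the highest of the others. No test was made of the difference, and whether probe sets of neighbouring genes read each other's transcripts was not tested. Neighbours were defined as family genes at most 2 places apart in the order of protein-coding genes. Only neighbours that were measured counted, so GSTL3, which lies next to GSTL1, a gene not analysed here, stands among the others.

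As a class, the 8 measured tau genes had a median log2 ratio of 0.20, with 6 above 0, GSTU25 included, and 2 below. The median came to 0.06 without GSTU25. With 16 of the 27 tau genes in the gene table having no named probe set, these values do not describe the class as a whole.

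The lambda class was represented by GSTL3 (AT5G02790), a member of a class whose enzymes can reduce glutathionylated flavonols. Its level was 573.6 in axr4-2 against 555.5 in wild type, at percentile 95.0 of either array, with a log2 ratio of 0.05. The level was nearly the same on both arrays.

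The phi class was represented by GSTF4 (AT1G02950), with a level of 26.5 in axr4-2 against 29.1 in wild type, too dim to count as measured. Its log2 ratio was -0.14. On the axr4-2 array the brightest bacterial control read 18.1, so the gene was above those controls on both arrays. The tau gene GSTU15 (AT1G59670) read 1.9 and 5.5, both under the floors. Over the 11 members for which a ratio could be formed, dim ones included, 8 lay above 0 and 3 below and the median was 0.06. The median was -0.09 for the 9972 named genes with a ratio. That larger set takes in genes with 1 value raised to the floor, while none of the 11 had such a value, so the medians are not fully alike.

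**Figure D3:**
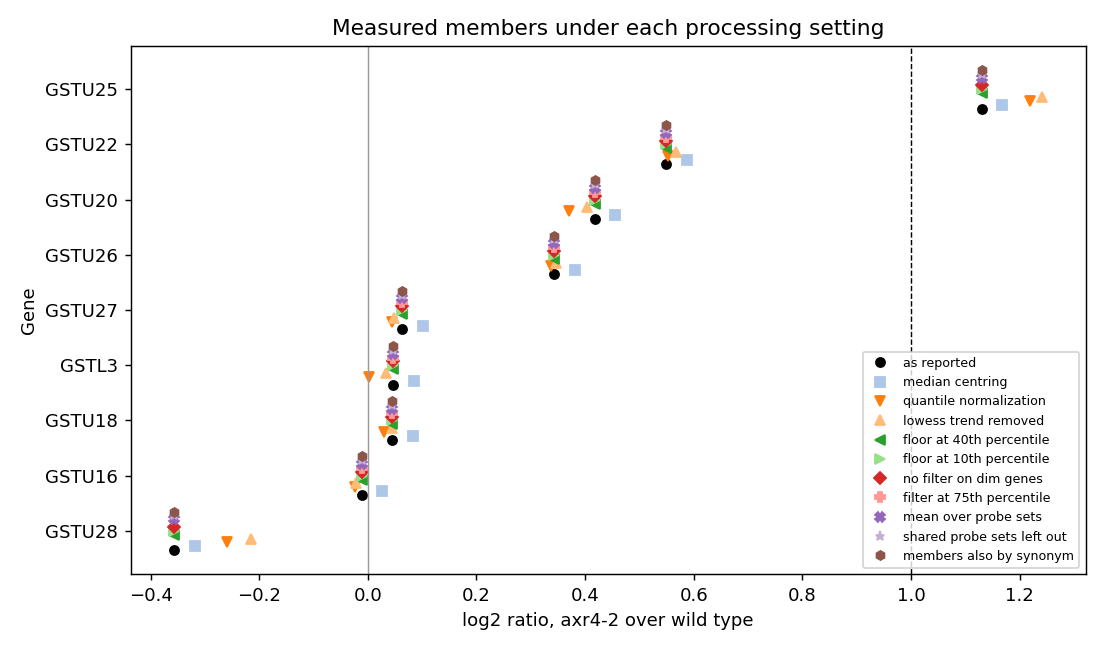
log2 ratio of axr4-2 over wild type for each of the 9 measured members as reported (black circles) and under 10 other processing settings (coloured symbols), with a dashed line at 1. GSTU25 lay between 1.13 and 1.24 wherever it was counted, and GSTU28 between -0.36 and -0.21.

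Genes that supply and recycle glutathione and ascorbate, or act beside the transferases, were few among the named probe sets, and none of the 9 that were measured was 2-fold apart, as were 2.41% of all measured genes. Of the glutathione metabolism genes, GR (AT3G54660), a glutathione reductase, was the measured one. Its level was 457.1 in axr4-2 against 449 in wild type, and the log2 ratio of 0.03 turned to -0.01 under quantile normalization. The 4 measured genes of the ascorbate cycle and of ascorbate synthesis had a median of 0.03, with 2 above 0 and 2 below. Their median turned to -0.02 under quantile normalization. SAPX, the stromal ascorbate peroxidase, read 186.8 and 135.1 (log2 ratio 0.47), and VTC4, of ascorbate synthesis, read 354.3 and 325 (0.12). TAPX, the thylakoid peroxidase, read 272.6 and 286.2 (-0.07), and GLDH, the last enzyme of ascorbate synthesis, read 118.6 and 140.5 (-0.24).

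Sulfate assimilation provides the cysteine from which glutathione is made, and 3 of its listed genes were measured, with a median of 0.24. The sulfite reductase gene SIR read 479.7 in axr4-2 and 377.3 in wild type (0.35). The ATP sulfurylase genes went in different directions, APS4 reading 294.1 and 248.9 (0.24) and APS3 reading 112.7 and 144.9 (-0.36). All 3 ratios were smaller than the probe set SD.

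Among genes known to respond to xenobiotics, AER, an alkenal reductase, was the measured one and was lower in axr4-2, at 304.2 against 443.1 (-0.54). This ratio and that of SAPX (0.47) lay further from 0 than the probe set SD of 0.41. The glycosyltransferase gene UGT73B4 read 18 and 5, UGT73B5 read 13.9 and 15.5, and UGT73C1 read 14.4 and 12.9, all too dim to count as measured. No listed TGA factor, the bZIP proteins that bind the promoters of many transferase genes, and no ABCC transporter, which carry glutathione conjugates into the vacuole, had a named probe set.

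**Figure D4:**
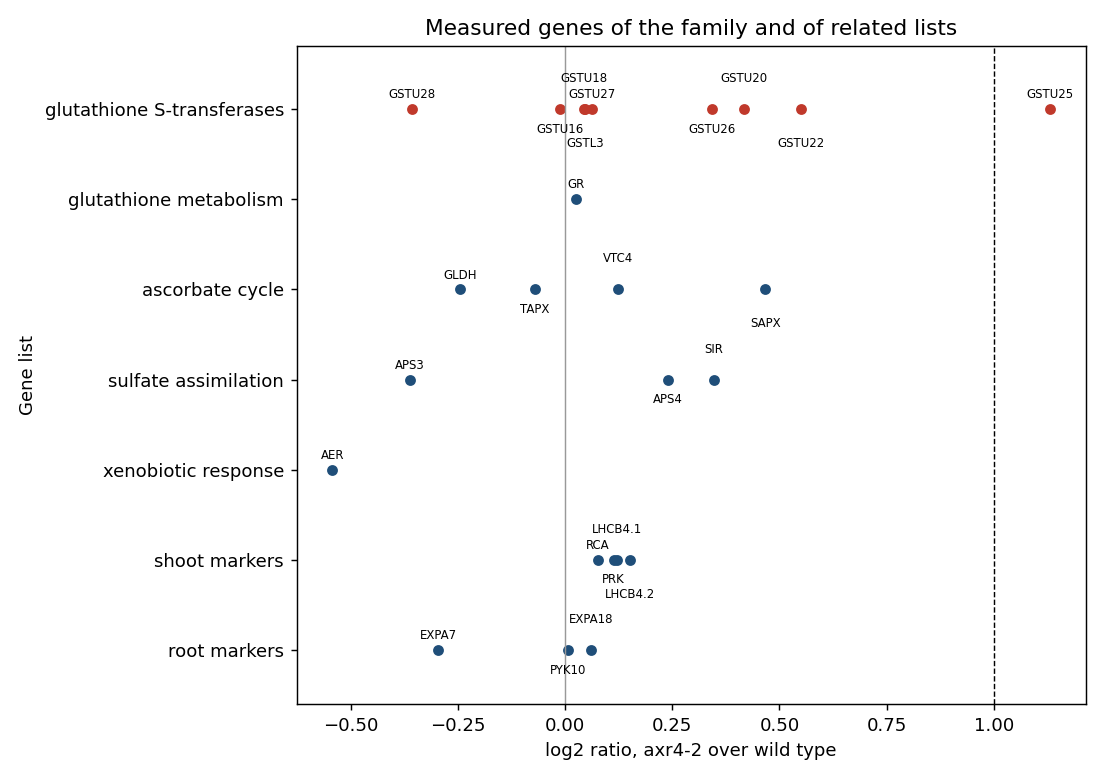
log2 ratio of axr4-2 over wild type for each measured gene of the family (red) and of the other gene lists (blue), with a dashed line at 1. GSTU25 alone lies beyond the line, and AER, at -0.54, is the lowest point.

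Markers of shoot and root were present on both arrays. The 4 measured photosynthesis genes, RCA, PRK, LHCB4.1 and LHCB4.2, had log2 ratios from 0.08 to 0.15. The root genes PYK10, EXPA7 and EXPA18 ranged from -0.30 to 0.06, with PYK10, the brightest, at 2982 in axr4-2 and 2967 in wild type. In RNA of whole plants, a change in the number of cells of a type and a change in RNA per cell cannot be told apart.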

How the data were processed

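RNA of axr4-2 and of wild-type plants was measured on 1 single-colour array each. The file deposited by the authors holds linear intensities for 22810 probe sets. With 2% of values trimmed from each end, either array had a mean of 100.0. How the intensities were computed and background-corrected is not stated in the labels. Scan background averaged 70.79 in axr4-2 and 80.02 in wild type, per the labels.

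Genes were named from the platform annotation, which gave 1 gene for 13513 probe sets, and symbols were updated through RefSeq assembly TAIR10.1 (13436 matched). A gene was read by its brightest probe set. Each measured member was named, and of other lists the 2 highest and 2 lowest measured genes. Members and lists were chosen with earlier results of these data known. The ratio step was tested on simulated data. The number of arrays limits all precision. Motif and protein comparisons were planned but no sequence was used here. Python 3.11.15, numpy 2.4.6, pandas 2.3.3, scipy 1.17.1, statsmodels 0.14.6 and matplotlib 3.10.9 were used.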

Additional observations from a re-analysis of the deposited data

How the results depend on the processing

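Alternatives covered scaling between the arrays (median centring, a lowess trend of span 0.3 subtracted, or quantile normalization), the floor (10th and 40th percentile), the filter on dim genes (none, 75th percentile), the probe sets used and membership by synonym. A value counted as moved when it shifted by more than 0.41, the SD of a single probe set, divided by the square root of the number of genes behind it, and a count when it changed by over 1.5 times. None of 88 alternative values of single members moved, and 2 of 264 alternative values in all did. With the filter at the 75th percentile, 0 members were 2-fold or more higher, since GSTU25 is dimmer than that and was not counted. With no filter, the xenobiotic response median went from -0.54 to -0.033, since 3 dim glycosyltransferase genes joined AER. The wild-type values of UGT73B4 and UGT73C1 were raised to the floor, so their ratios are lower bounds. Of the 88, 27 came from the 3 scaling alternatives. The other 61 equalled the reported value, since measured members lie above every floor tried and have 1 probe set each, so these counts overstate stability. Signs near 0 turned for GSTU16 (0.03 with median centring). Under quantile normalization they turned for the medians of ascorbate cycle and synthesis genes (-0.02) and glutathione metabolism (-0.01). The root marker median turned as well, to -0.04 under quantile normalization and -0.02 with the trend removed. The tau median ranged from 0.19 to 0.24. No paired analysis was possible because each group has 1 array, which also left no array to leave out. Low signal limits GSTF4, GSTU15, GSTU21 and GSTU23 most.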

Other observations

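Membership by synonym added 1 gene, ATGSTF13 (AT3G62760), a phi class gene that the symbol rule leaves out. Its level was 25.4 in axr4-2 against 18.9 in wild type, with a log2 ratio of 0.43, and was too dim to count as measured. The wild-type value was below the brightest bacterial control on that array, at 27.1.

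Around GSTU25, within 5 protein-coding genes on either side, 3 genes outside the family were measured. Their log2 ratios ranged from -0.50 to 0.24, and none was 2-fold apart, as were 2.41% of all measured genes. With 3 genes, that count says little. No measured neighbour of any other measured member was 2-fold apart either.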
